A study of Mus musculus with 147 samples.

Results

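Islet macrophages, the resident macrophages of the pancreatic islets, were compared between mice fasted for 12 h and mice fasted for 12 h and then refed with chow for 2 h. The libraries were chosen by title and treatment label. They comprised 6 fasted and 7 refed libraries, 13 of the 110 libraries of the refeeding experiment and of the 147 in the whole series. The series profiled tissue macrophages by polyA RNA sequencing in a short-term challenge, fasting and refeeding in 7 populations, and in a long-term challenge, high-fat diet with or without streptozotocin. Each library was made with Smart-seq2, a full-length cDNA protocol for small inputs, from 400 cells purified by fluorescence-activated sorting. The 13 libraries fell into 4 cohorts with 1, 2, 1 and 2 fasted libraries and 1, 2, 1 and 3 refed libraries. Strain, genotype, sex and age of the mice are not given in the labels. No transgene is named for either group. Fasted mice, not mice fed at will, were the reference, and the refed mice had gone through the same fast. Replicates 1_2 and 5_6 of both groups carry a pair of numbers in their titles, and the labels do not say whether these were pooled mice. Nothing in the labels states that every library came from a separate animal, so p-values measure the spread between these libraries, part of which may be technical.

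Macrophages in islets lie against beta cells and capillaries, carry large amounts of MHC class II and make interleukin-1 beta and tumour necrosis factor even in healthy mice. During a fast, adipose tissue releases fatty acids into blood. Cells import them through carriers such as CD36, coat stored lipid with perilipin 2, and attach fatty acids to carnitine with CPT1A for oxidation in mitochondria. Fatty acids also activate PPAR nuclear receptors, which raise the transcription of these same genes, and feeding brings glucose and insulin that oppose fat oxidation.

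The sorted cells carried the markers of the label. All 16 general macrophage markers and all 12 islet macrophage markers were counted in every library. As CPM, counts scaled to the total of the library, Cd74, the invariant chain of MHC class II, stood at 30820 to 43180, Apoe at 20910 to 32900, Itgax, which encodes CD11c, at 363 to 726, and Csf1r at 2830 to 4246. Mrc1, which encodes CD206 and marks exocrine tissue macrophages, stood at 9.97 to 388, and Stab1 of the same list at 202 to 579. The 12 markers of this list summed to 504 to 2864 CPM in fasted and 392 to 1314 CPM in refed libraries. Cohorts 1 and 3 had the highest sums: 1262 (fasted) and 1314 (refed) in replicate 1_2, and 2864 and 1294 in replicate 5_6. Total counts per library ran from 12263364 to 22266586 in the fasted and from 15386404 to 22334425 in the refed group. Other pancreatic cells left RNA in both groups: the 18 beta cell markers summed to 956 to 3068 CPM in the fasted and 659 to 2783 CPM in the refed group, with Ins1 and Ins2 in all 13. The 27 acinar markers summed to 401 to 1361 CPM (median 730.4) in fasted and 171 to 1503 CPM (median 411) in refed libraries. In the acinar list 5 of 19 tested genes were higher and 14 lower in refed libraries, with a median log2 fold change of -0.66, which was -0.40 without refed replicate 9 and -1.18 without refed replicates 1_2 and 3. None of these summed levels separated the groups, and their part in the results below was not tested.

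Certain libraries went against the labels or stood apart. Refed replicates 1_2 and 3 are labelled refed in title and treatment, but their free-text description names the fast alone. Values without them are given beside the main results. Cohort 1 has 1 library in each group. With cohort as a block, leaving out refed replicate 1_2 thus also takes fasted replicate 1_2 out of the fitted comparison. A shift in these fitted values cannot be assigned to the libraries described as fasted alone. Refed replicate 9 had the lowest quality weight in limma voom (0.249) and the lowest median correlation with the other libraries (0.566), and values without it are given as well.

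No gene passed an adjusted p of 0.05 in edgeR's quasi-likelihood test of refed against fasted islet macrophages with cohort as a block, higher (0%) or lower (0%), of 10059 genes tested. The smallest adjusted p was 0.526, for Aldh9a1. At an unadjusted p below 0.05 there were 243 genes (2.42%), 139 of them higher in refed libraries (1.38%) and the rest lower (1.03%). If no gene differed, this threshold would let through a share of 0.05 of the genes, more than was seen. With limma voom 0 genes passed and 441 had an unadjusted p below 0.05. DESeq2 called 27 genes higher (0.283%) and 17 lower (0.178%) of the 9552 to which it gave an adjusted p. Of these 44 calls 33 had no count in at least 1 library, against 38.6% of all tested genes, and 11 had counts in every library. Because edgeR called no gene, single genes are described here by their levels, and an edgeR log2 fold change (refed over fasted) with its standard error and unadjusted p stands beside them. Of all tested genes 6.03% were higher and 6.48% lower in each of the 4 cohorts. Genes named for a small p were picked in a fit of these cohorts, so the same direction in all 4 is not independent support for them. Levels from here on are CPM scaled by TMM factors over the islet libraries. They compare libraries for 1 gene, not genes of different length. RNA per cell and the share of cells that hold an RNA cannot be told apart in these bulk libraries.

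Of the genes lower in refed libraries at a mean of at least 10 CPM, Aldh9a1 and Cpt1a had the smallest p. Both belong to a list of genes that make carnitine or bring fatty acids to mitochondria with it. This list was chosen with earlier results of these data known, so its holding both genes is not independent support. Of 10 listed genes, 7 were tested, and 6 of the 7 were lower and 1 higher in refed libraries. The median log2 fold change was -0.95, the value of Aldh9a1 itself, against 0.03 over all tested genes. Only these 2 of the 7 separated the groups. They were among 4 genes (0.0398%) for which all 7 refed libraries lay below all 6 fasted ones. How many genes would separate in this way with no effect of refeeding was not worked out.

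Cpt1a (ENSMUSG00000024900, mm10 chr19:3322334-3385733, plus strand) encodes carnitine palmitoyltransferase 1A, the rate-limiting step of fatty acid entry into mitochondria. Its level in fasted libraries was 149.5 CPM at the lowest, 175 at the median and 254 at the highest. In refed libraries it was 17.5 at the lowest, 66.8 at the median and 91.6 at the highest. The groups did not overlap, and the refed minus fasted difference in mean log2 CPM within cohorts 1 to 4 was -1.22, -1.03, -1.72 and -2.61. The log2 fold change was -1.70 ± 0.33 (SE, edgeR unadjusted p = 0.000267), -1.82 without the 2 libraries described as fasted and -1.83 without refed replicate 9. Its adjusted p was 1 in edgeR and 0.00158 in DESeq2, and it ran from 0.00158 to 1 over 28 alternative settings.

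Aldh9a1 (ENSMUSG00000026687, chr1:167349991-167368532, plus strand) encodes an aldehyde dehydrogenase of carnitine synthesis. Fasted libraries spanned 189 to 253 CPM with a median of 226, and refed libraries 88.7 to 139.8 CPM with a median of 117.9. Every refed library lay below every fasted library, and all 4 cohorts differed in the same direction. The log2 fold change was -0.95 ± 0.16 (SE, edgeR unadjusted p = 5.23e-05). Its DESeq2 adjusted p was 1.67e-05, and the range over the alternatives was 8.25e-06 to 1. The log2 fold change was -1.02 without the 2 libraries described as fasted and -0.94 without refed replicate 9.

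The other carnitine genes were less deeply counted and overlapped between the groups. Slc25a20, the carnitine-acylcarnitine carrier of the inner membrane, stood at 21.01 to 82.7 CPM (median 52.01) in fasted and 0.425 to 73.1 CPM (median 33.8) in refed libraries, and was lower in all 4 cohorts. Cpt2, which frees the fatty acid again inside mitochondria, was at 0 in 2 libraries and reached 34.5 CPM in the fasted group. Crat, which acts on short acyl chains, had a log2 fold change of -0.04 ± 0.41, and Slc22a5, the carnitine importer of the plasma membrane, 0.27 ± 1.33. Crot stood at -0.52 ± 1.30. Cpt1b, the muscle form, had counts in 1 library and was among the 3 members not tested.

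**Figure D1:**
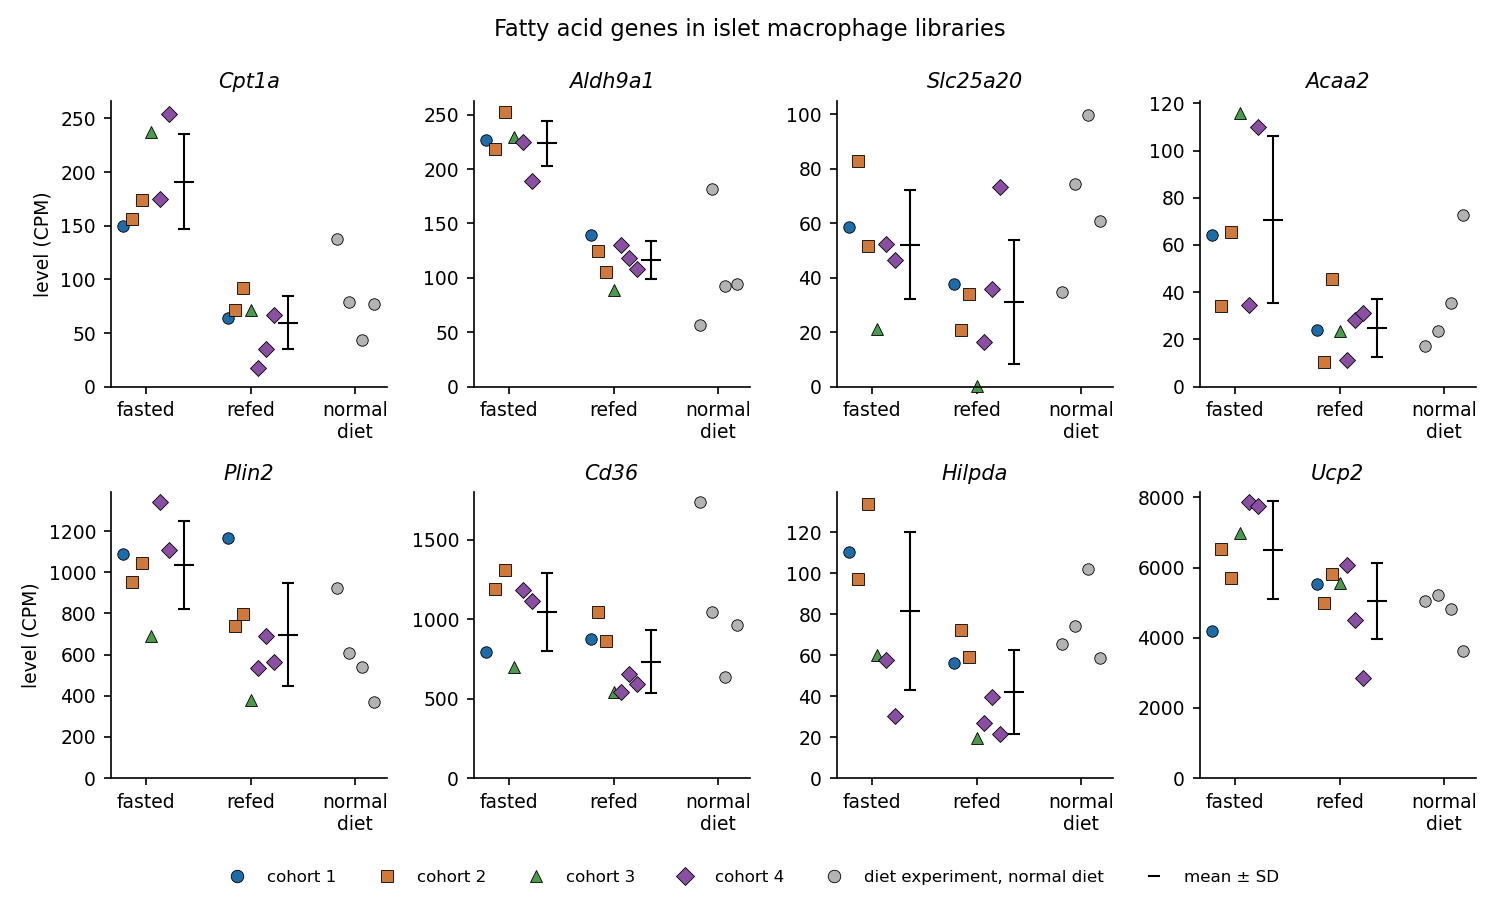
Level in CPM of 8 genes of fatty acid transport, oxidation and storage in each fasted and refed islet macrophage library, with symbols by cohort, black bars for the mean ± SD of each group, and grey points for the 4 normal-diet libraries of the separate diet experiment. The 7 refed libraries lie below the 6 fasted ones for Cpt1a and Aldh9a1, and the groups overlap for the other 6 genes.

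The promoters of both genes are printed to show whether they hold the 6-base site read by PPAR and related nuclear receptors. The letters AGGTCA were searched on both strands of RefSeq promoters (GRCm38.p6), from 250 bases before to 50 bases after each start; matches are in capitals, and where the motif lies on the other strand the capitals read TGACCT. Each sequence below is the 250 bases before the start, 5′ to 3′ on the strand of the gene. Cpt1a, at chr19:3323051-3323300 on the plus strand, held 1 match that began 94 bases before the start. This window lies inside the gene span given above, so its start is not the outermost annotated one. Aldh9a1, at chr1:167349741-167349990 on the plus strand, held none.
Cpt1a: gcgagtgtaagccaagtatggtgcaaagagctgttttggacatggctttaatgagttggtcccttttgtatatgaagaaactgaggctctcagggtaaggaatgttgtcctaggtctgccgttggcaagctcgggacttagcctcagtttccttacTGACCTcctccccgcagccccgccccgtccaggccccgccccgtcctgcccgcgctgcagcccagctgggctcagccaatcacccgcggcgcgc
Aldh9a1: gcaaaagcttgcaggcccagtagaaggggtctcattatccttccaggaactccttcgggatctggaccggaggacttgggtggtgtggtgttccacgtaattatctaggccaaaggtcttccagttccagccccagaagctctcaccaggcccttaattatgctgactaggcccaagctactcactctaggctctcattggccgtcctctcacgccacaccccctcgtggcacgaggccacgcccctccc
The site is common: 5340 of 32851 promoters (16.3%) held it. The direct repeat AGGTCANAGGTCA, in which a single free base separates a pair of these sites, was in 13 promoters (0.0396%) and in 0 of the 46 promoters of the 40 listed carnitine, beta oxidation and PPAR target genes with an entry, of 54 listed. Among these 46 promoters 9 held the single site. A match describes letters in this window and is not a measured binding site.

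Inside mitochondria the enzymes of beta oxidation shorten acyl chains step by step. Of 22 listed genes 20 were tested, 12 lower and 8 higher in refed libraries, with a median log2 fold change of -0.31. It was -0.18 without refed replicate 7 and -0.20 with no cohort term. The refed group was lower in every cohort for 7 of them and higher in every cohort for 2, where 6.48% and 6.03% of all tested genes were lower and higher in every cohort. Acaa2, the thiolase that releases acetyl-CoA in each round, stood at 34.2 to 115.7 CPM (median 65) in fasted and 10.2 to 45.4 CPM (median 23.9) in refed libraries. These ranges overlapped, the refed median lay below the lowest fasted library, and the log2 fold change was -1.45 ± 0.48 (SE, edgeR unadjusted p = 0.011). It was -1.31 without the 2 libraries described as fasted.

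Electron transfer from this pathway runs through a flavoprotein of the subunits Etfa and Etfb and its dehydrogenase Etfdh. Etfa stood at 36.4 to 96.4 CPM (median 66.03) in fasted and 9.34 to 64.2 CPM (median 53.3) in refed libraries. Etfa, Etfb and Etfdh had log2 fold changes of -0.62 ± 0.32, -0.70 ± 0.85 and -1.20 ± 1.00, and all 3 were lower in each cohort. The acyl-CoA dehydrogenases were mixed: Acadvl for very long chains -0.58 ± 0.46, Acadl for long chains -0.36 ± 0.23, Acadm for medium chains -0.26 ± 0.28 and Acads for short chains 0.52 ± 0.58. The trifunctional protein subunits Hadha and Hadhb, at 0.18 ± 0.35 and 0.16 ± 0.34, lay on the higher side. Hadh, which acts on hydroxyacyl-CoA, had -0.63 ± 0.47 and was lower in all 4 cohorts, while Decr1 and Hsd17b10, at 1.28 ± 1.38 and 0.35 ± 0.50, were higher in all 4. The other 7 tested genes ran from -1.27 (Acad12) to 0.42 (Acat1). Acaa2 alone in the list had an unadjusted p below 0.05.

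Genes of lipid uptake and storage that PPAR receptors drive made up the third fatty acid list, with 13 of 22 tested, 9 lower and 4 higher in refed libraries, and a median log2 fold change of -0.48. Without refed replicate 9 the median was -0.48, and without the 2 libraries described as fasted -0.50. Plin2, Cd36, Hilpda and Lipa had an unadjusted p below 0.05, and all 4 were lower. Pdk4, a classical fasting gene, was not tested and did not exceed 3.83 CPM in any library, and Vldlr was counted in none.

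Plin2 (ENSMUSG00000028494, chr4:86648386-86670060, minus strand) encodes perilipin 2, the main coat protein of macrophage lipid droplets. It stood at 688 CPM at the lowest, 1065 at the median and 1339 at the highest in fasted libraries, and at 378, 690.4 and 1167 in refed ones. The groups overlapped: 4 refed libraries lay above the lowest fasted one, and refed replicate 1_2, described as fasted, lay at 1167 CPM above 5 of the 6 fasted libraries. In cohorts 2, 3 and 4 every refed library lay below every fasted library of its cohort. The refed minus fasted difference in mean log2 CPM was 0.10 in cohort 1, which holds replicate 1_2, and -0.38, -0.87 and -1.04 in cohorts 2 to 4. The log2 fold change was -0.63 ± 0.16 (SE, edgeR unadjusted p = 0.00167), and -0.79 without the 2 libraries described as fasted. The DESeq2 adjusted p was 0.0268, and the range over the alternatives was 0.0258 to 1.

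Cd36 (ENSMUSG00000002944, chr5:17781690-17888801, minus strand), the fatty acid and oxidised lipoprotein receptor, was ordered alike within cohorts. Fasted libraries stood at 698 to 1310 CPM with a median of 1150, and refed libraries at 543 to 1049 CPM with a median of 655. In cohorts 2, 3 and 4 every refed library again lay below every fasted library of its cohort. The cohort 1 difference in mean log2 CPM was 0.14, and those of cohorts 2 to 4 were -0.39, -0.36 and -0.95. The log2 fold change was -0.51 ± 0.14 (SE, edgeR unadjusted p = 0.00398) and -0.70 without the 2 libraries described as fasted. The DESeq2 adjusted p was 0.0865, and Cd36 passed the threshold in 0 of 28 alternative settings, where the lowest adjusted p was 0.0791 (DESeq2 without its filter on outlying counts).

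The remaining members varied in size. Hilpda, an inhibitor of the lipase ATGL at lipid droplets, stood at 30.2 to 133.8 CPM (median 78.9) in fasted and 19.8 to 72.2 CPM (median 39.5) in refed libraries, lower in all 4 cohorts. Lipa, the lysosomal acid lipase, stood at 466.3 to 709 CPM (median 607) and 253 to 591 CPM (median 449.8). Ucp2, a mitochondrial carrier abundant in macrophages, reached 7866 CPM in the fasted group and 6066 CPM in the refed group, with a log2 fold change of -0.35 ± 0.18 (SE, edgeR unadjusted p = 0.0827). Lpl, which releases fatty acids from lipoproteins, stood at 0.04 ± 0.38, and Pnpla2, which encodes ATGL itself, at 0.13 ± 0.31. The other 6 tested genes of this list ran from -1.32 ± 2.47 (Angptl4) to 1.01 ± 1.62 (Fabp5). In the wider list of peroxisomal oxidation and acyl-CoA handling, 8 of 15 tested genes were lower. Acot2, a mitochondrial acyl-CoA thioesterase, had -1.78 ± 0.63 (SE, edgeR unadjusted p = 0.0149) and Acsl5, an acyl-CoA synthetase, -0.56 ± 0.23 (SE, edgeR unadjusted p = 0.0321), both lower in all 4 cohorts.

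The promoters of Plin2 and Cd36 are printed since they carried the same site as Cpt1a, so they were picked for the match. The site was in 9 of the 46 promoters of listed genes and in 16.3% of all promoters. Whether PPAR receptors act on these genes here was not tested. That of Plin2, at chr4:86670060-86670309 on the minus strand, held it 218 bases before the start. A promoter of Cd36, at chr5:17835897-17836146 on the minus strand, held it 228 bases before the start. This Cd36 window lies inside the gene span given above, so its start is not the outermost annotated one.
Plin2: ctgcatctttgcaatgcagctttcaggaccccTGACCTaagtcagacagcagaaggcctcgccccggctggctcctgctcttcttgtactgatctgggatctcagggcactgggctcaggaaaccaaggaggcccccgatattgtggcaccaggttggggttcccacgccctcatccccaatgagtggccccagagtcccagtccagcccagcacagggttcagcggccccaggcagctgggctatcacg
Cd36: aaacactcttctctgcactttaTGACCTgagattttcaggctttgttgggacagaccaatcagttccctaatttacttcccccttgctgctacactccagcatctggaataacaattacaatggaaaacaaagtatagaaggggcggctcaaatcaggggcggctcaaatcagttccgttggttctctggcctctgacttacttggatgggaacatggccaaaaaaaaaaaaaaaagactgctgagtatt
The receptor genes themselves gave no separation. Of 11 tested genes for PPAR receptors and partners 7 were higher and 4 lower, with a median log2 fold change of 0.16, and none had an unadjusted p below 0.05.

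Genes of glucose use lay in both directions. The glycolysis list had 13 genes higher and 10 lower of 23 tested, with a median log2 fold change of 0.07. Slc16a3, the lactate exporter MCT4, was its only gene with an unadjusted p below 0.05: 28.2 to 106.5 CPM (median 65.95) in fasted and 16.6 to 80.8 CPM (median 25.1) in refed libraries, with a log2 fold change of -0.87 ± 0.36. Aldoa, the aldolase of glycolysis, stood at 469 to 532 CPM (median 482) in fasted and 479.6 to 657 CPM (median 582) in refed libraries, and was higher in all 4 cohorts.

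Of the genes for pyruvate entry and its kinases, 8 of 11 tested were higher, with a median of 0.37. Pdk2, a kinase that shuts pyruvate dehydrogenase, was the main exception, at 6.42 to 40.1 CPM in the fasted and 0 to 10.1 CPM in the refed group, lower in all 4 cohorts. Among the MondoA and ChREBP genes that respond to glucose, 6 of 10 tested were higher. Acly, which makes cytosolic acetyl-CoA for lipid synthesis, stood at 85.5 to 171.5 CPM (median 109.4) in fasted and 101.7 to 249 CPM (median 193) in refed libraries (log2 fold change 0.62 ± 0.25, edgeR unadjusted p = 0.0282). Srebf1, the lipogenic regulator that insulin raises in liver, stood at 3.91 to 50.5 CPM and 31.7 to 138.2 CPM, higher in all 4 cohorts (log2 fold change 1.10 ± 0.52, edgeR unadjusted p = 0.0559). The median of this list depended on single libraries, at 0.04 over all 13, 0.37 without refed replicate 9 and -0.14 without the 2 libraries described as fasted.

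Insulin and IGF signalling genes were split, 11 higher and 13 lower of 24 tested. Pik3r1, the regulatory subunit of phosphoinositide 3-kinase, was its member with the smallest p, at 163 to 308 CPM in the fasted and 54.9 to 274 CPM in the refed group (log2 fold change -0.58 ± 0.23). FOXO targets, genes that insulin holds down in many cells, had 12 higher and 10 lower of 22 tested. S1pr1, a sphingosine-1-phosphate receptor, stood at 72.8 to 301 CPM (median 142) in fasted and 151 to 334 CPM (median 258) in refed libraries. Bcl2l11, the death-promoting protein BIM, stood at 94.8 to 473 CPM (median 417) and 75 to 471 CPM (median 240.5). The pair lay in opposite directions within 1 list, both with the same direction in all 4 cohorts.

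**Figure D2:**
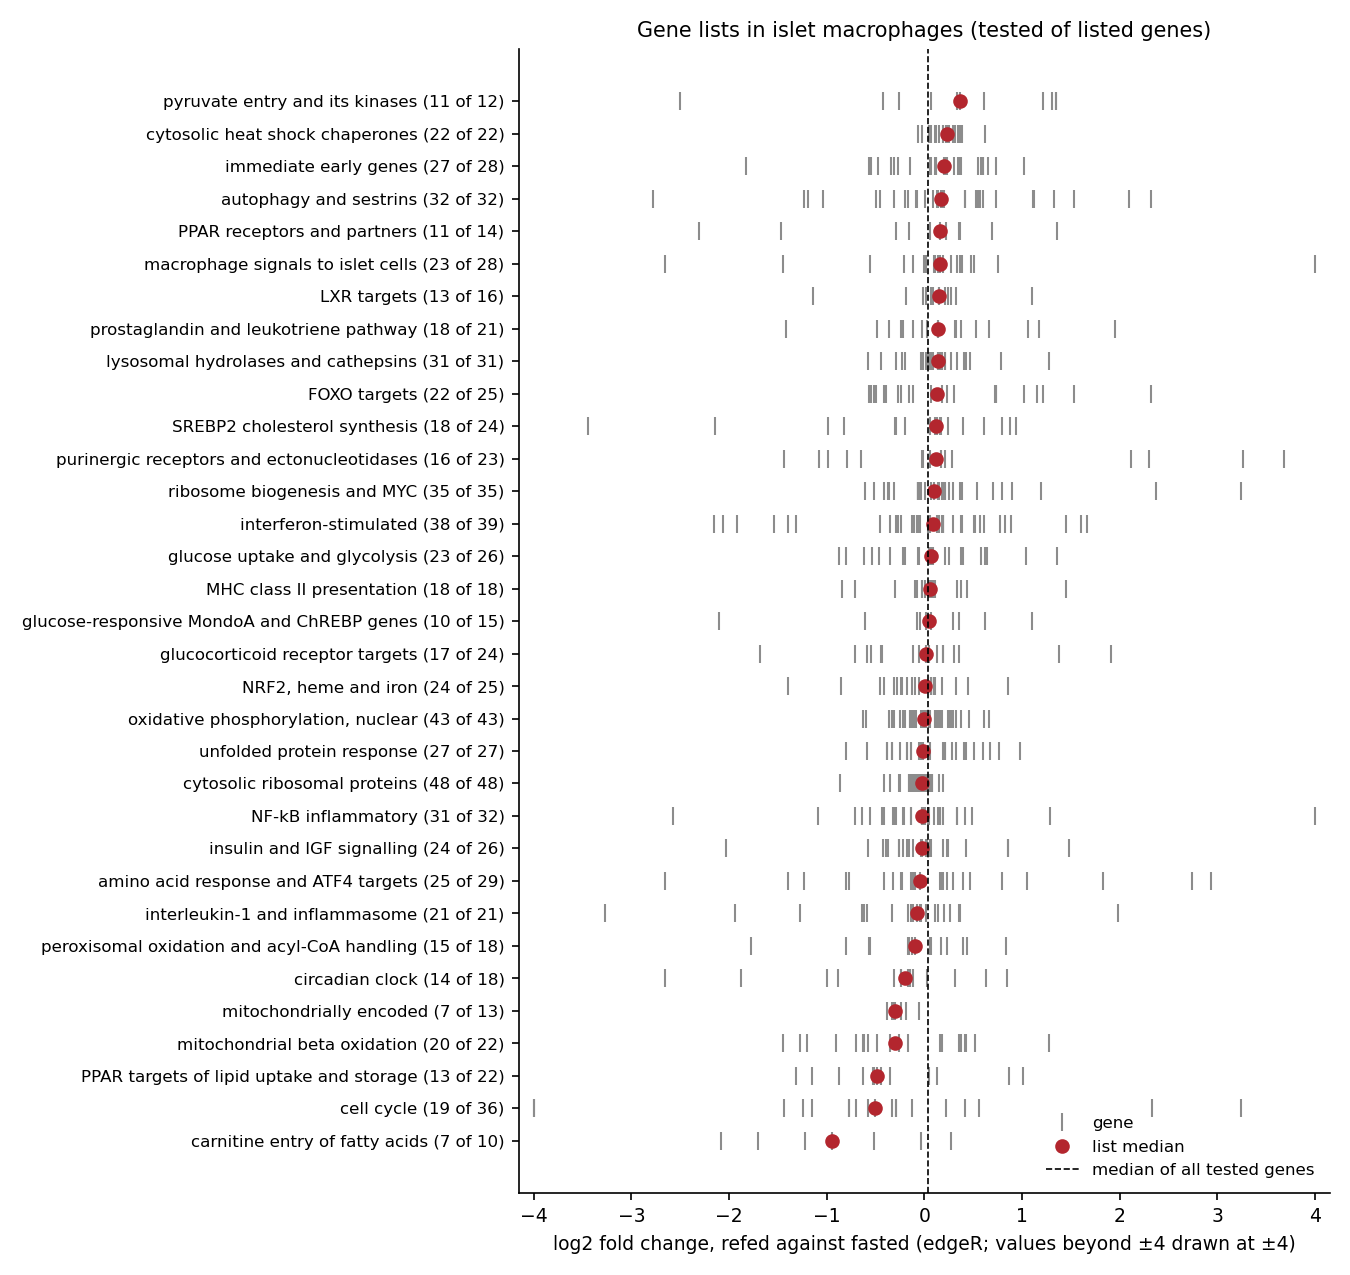
Log2 fold change of refed over fasted islet macrophages for the tested members of each response list (grey ticks), the list median (red point) and the median of all tested genes (dashed line at 0.03). Carnitine entry, at -0.95, lies at the low end, and most other medians lie near the dashed line.

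Cytosolic heat shock chaperones lay mostly on the higher side: 20 of 22 were higher in refed libraries, with a median log2 fold change of 0.23, where 52.9% of all tested genes were higher. In 9 of the 22 the refed group was higher in each cohort. Hspa1a, the inducible HSP70, stood at 879 to 4647 CPM (median 3542) in fasted and 962 to 7186 CPM (median 4412) in refed libraries, with a log2 fold change of 0.36 ± 0.13 (SE, edgeR unadjusted p = 0.0138). Dnaja1, an HSP40 partner, had 0.32 ± 0.14, and Chordc1, an HSP90 partner, 0.62 ± 0.28. The list median was 0.20 without the 2 libraries described as fasted and 0.15 without refed replicate 7. Hspa1a has the near-identical copy Hspa1b, between which the counting could split reads. For Hspa1b the refed minus fasted difference in log2 CPM within cohorts 1 to 4 was -0.99, 0.48, -0.06 and 0.28.

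Cohorts differed in these chaperones as well. In cohort 2 Hspa1a stood at 879 to 1352 CPM in all 4 libraries, and in the other cohorts at 3311 to 7186 CPM. Within cohorts the refed minus fasted difference in log2 CPM was 0.37, 0.27, 0.38 and 0.40. Normal-diet libraries of the separate diet experiment held 62.6 to 336 CPM of Hspa1a. Dnajb1, another HSP40, stood at no more than 2741 CPM in cohort 2 and at 2838 to 8404 CPM in the others. Hsph1, an HSP110 exchange factor, stood at 0.12 ± 0.20 and Hspa8, the constitutive HSC70, at 0.19 ± 0.11. For Hspa1a, cohort 2 lay apart from the other cohorts in both groups, and the labels do not say how the cohorts differed.

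Outside that list a pair of HSP90 co-chaperones stood among the genes with the smallest p. Fkbp4, an immunophilin, stood at 33.6 to 119.5 CPM (median 98.2) in fasted and 102.9 to 205 CPM (median 166) in refed libraries, with a log2 fold change of 0.95 ± 0.27 (SE, edgeR unadjusted p = 0.00464). St13, which links HSP70 to HSP90, stood at 47.3 to 227 CPM (median 127) and 136.5 to 263 CPM (median 211). In the endoplasmic reticulum the unfolded protein response list was split, 13 higher and 14 lower of 27. The chaperone partners Sdf2l1 and Dnajb11 had 0.60 ± 0.21 and 0.51 ± 0.19, both higher in all 4 cohorts. Herpud1, which works in the disposal of misfolded proteins, stood at 707 to 2686 CPM (median 1748) in fasted and 488 to 1588 CPM (median 1221) in refed libraries, lower in all 4 cohorts (-0.59 ± 0.16, edgeR unadjusted p = 0.00403).

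**Figure D3:**
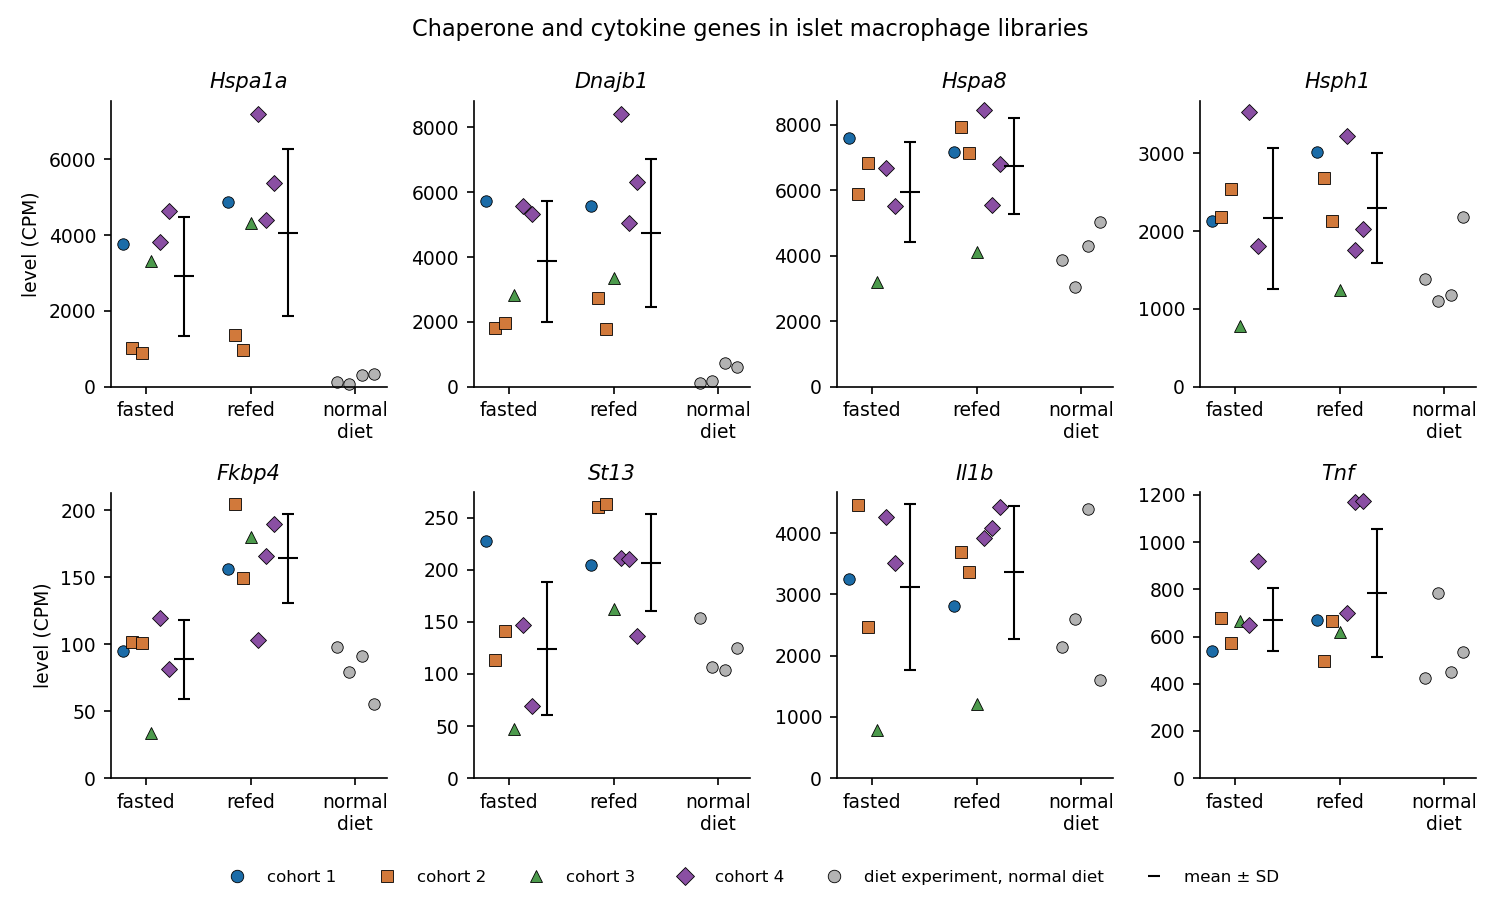
Level in CPM of 6 chaperone genes and of Il1b and Tnf in each islet macrophage library, drawn as in the plot of fatty acid genes. Fasted and refed points overlap for all 8 genes, and for Hspa1a the 4 cohort 2 libraries lie at 879 to 1352 CPM, below all other fasted and refed islet libraries.

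The cytokines for which islet macrophages are known showed no separation. Il1b stood at 782 to 4464 CPM (median 3376) in fasted and 1214 to 4432 CPM (median 3692) in refed libraries, with a log2 fold change of 0.11 ± 0.14. Its lowest values, 782 and 1214 CPM, were both from cohort 3. Tnf stood at 538 to 920.0 CPM and 496 to 1173 CPM (0.14 ± 0.17). The sensor Nlrp3 had -0.17 ± 0.34, the receptor antagonist Il1rn 0.01 ± 0.37 and Il1a 0.37 ± 0.21. Of 21 interleukin-1 and inflammasome genes 8 were higher and 13 lower, none with an unadjusted p below 0.05. Irak3, an inhibitor of this receptor pathway, stood at 7.60 to 72.2 CPM in the fasted and 0.0607 to 24.5 CPM in the refed group, lower in all 4 cohorts.

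Single chemokine genes lay in both directions; no list of chemokines was set apart. Cxcl2, which draws neutrophils, stood at 594 to 1257 CPM (median 953) in fasted and 646 to 1502 CPM (median 1151) in refed libraries, higher in all 4 cohorts (0.33 ± 0.13). Ccl5, which draws T cells, stood at 27.6 to 173.7 CPM (median 103.2) and 17.6 to 63.9 CPM (median 42.5), lower in all 4 cohorts (-1.09 ± 0.44). Cxcl13, which draws B cells and was chosen after its values were seen, stood at 154 ± 193.5 CPM (SD, n = 6) in fasted and 27.96 ± 49.4 CPM (SD, n = 7) in refed libraries. It was at 0 in 3 libraries and varied within the groups by more than its means, with a fitted log2 fold change of -6.14 ± 1.88 (SE, edgeR unadjusted p = 0.00683, DESeq2 adjusted p = 0.0223). Il6 was low, with a median of 0.893 CPM in the fasted and 11.8 CPM in the refed group and no count in 3. Among immediate early genes 19 of 27 were higher, with a median of 0.20. That median was 0.08 without fasted replicate 7, 0.37 without fasted replicate 8, 0.13 without refed replicate 9 and 0.31 with no cohort term. Fosb and Ier2, which appear within minutes of a stimulus, had 0.60 ± 0.24 and 0.55 ± 0.25. Of 23 genes for macrophage signals to islet cells 17 were higher, with a median of 0.16 and 1 unadjusted p below 0.05, that of Cxcl2.

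RNA of the mitochondrial genome lay on the lower side: of 13 listed genes 7 were tested and all 7 were lower in refed libraries, with a median log2 fold change of -0.31. mt-Nd5, a subunit of complex I, stood at 602 to 1109 CPM (median 873) in fasted and 490.4 to 900.3 CPM (median 733) in refed libraries, lower in all 4 cohorts. mt-Co1, a subunit of complex IV, stood at 2545 to 4526 CPM (median 3827) and 2236 to 3555 CPM (median 3147). Refed replicate 1_2, described as fasted, had the lowest share of counts in mitochondrial protein genes (0.547%), and without it and refed replicate 3 the list median was -0.16. It was -0.15 without fasted replicate 1_2 alone and -0.16 without refed replicate 1_2 alone. Cohort 1 holds only these libraries and cohort was a block, so either fit leaves cohort 1 out of the comparison. Nuclear genes of oxidative phosphorylation were even, 21 higher and 22 lower of 43, with a median of -0.00369.

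Other constitutive lists lay close to all genes. Of 48 cytosolic ribosomal protein genes 33 were lower, but the median log2 fold change was -0.03. Rbm3, a cold-inducible RNA-binding protein, stood at 167.5 to 275 CPM (median 255) in fasted and 62.6 to 192 CPM (median 136) in refed libraries, lower in all 4 cohorts (-0.77 ± 0.22). Its exons overlap the antisense gene Rbm3os, whose reads cannot be told apart without strand. Of 31 lysosomal hydrolases and cathepsins 24 were higher, with a median of 0.14, and of 32 autophagy genes 21, with a median of 0.17. Ctsc, a cathepsin that matures granule proteases, had 0.18 ± 0.08, Gusb, a beta-glucuronidase, 0.47 ± 0.21, and Atg7, which activates the conjugation of LC3, 1.11 ± 0.46. Of 18 MHC class II presentation genes 11 were higher, with a median of 0.06.

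Among the 24 genes with the smallest p (12 in each direction, at a mean of at least 10 CPM), several belong to no list. Dynll1 (ENSMUSG00000009013, chr5:115297110-115300999, minus strand), the light chain of dynein, stood at 49.9 to 75.8 CPM (median 63.7) in fasted libraries, and at a median of 109.5 and up to 151 CPM in refed ones. It was 1 of 8 genes (0.0795%) for which all refed libraries lay above all fasted ones, with a log2 fold change of 0.90 ± 0.20 (SE, edgeR unadjusted p = 0.00063). The DESeq2 adjusted p was 0.00299, with a range of 0.00299 to 1 over the alternatives. The other 7 were Ankrd13c, Adprh, Timm50, Arpp19, Med24, Hcfc1 and Mib2, chosen after their values were seen. Their highest fasted libraries ran from 19.8 CPM (Med24) to 73.96 CPM (Hcfc1), so most of the separated genes were of modest level.

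Rnpep (chr1:135262712-135284084, minus strand), an aminopeptidase, stood at 27.4 to 127 CPM (median 39.7) in fasted and 89.8 to 146.5 CPM (median 127) in refed libraries. The log2 fold change was 1.27 ± 0.27 (SE, edgeR unadjusted p = 0.000528), and cohort 3 differed by 0.05 against 1.89, 1.51 and 1.32 in cohorts 1, 2 and 4. Cluh, which binds mRNAs of mitochondrial proteins, stood at 2.01 to 22.98 CPM (median 11.5) in fasted and 19.6 to 119.3 CPM (median 33.5) in refed libraries, higher in all 4 cohorts. Dab2, an endocytic adaptor, stood at 170 to 385 CPM and 354 to 547 CPM, with a small overlap. Dctn1, a subunit of the dynein partner dynactin, stood at 38.5 to 89.7 CPM (median 53.7) and 58.1 to 154 CPM (median 109.7), and Letm1, a protein of the inner mitochondrial membrane, at 14.7 to 62.6 CPM (median 25.6) and 37.2 to 93.2 CPM (median 79.9). Both were higher in all 4 cohorts and overlapped between the groups.

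On the lower side Lgals9, which encodes galectin-9, stood at 417 to 661 CPM (median 524) in fasted and 290 to 457 CPM (median 374) in refed libraries (-0.56 ± 0.12, edgeR unadjusted p = 0.000673), lower in all 4 cohorts. Psma1, a subunit of the proteasome core, stood at 195 to 253 CPM (median 217) and 124 to 188 CPM (median 147), without overlap. D6Wsu163e completed the 4 separated genes on this side, at 14.7 to 58.95 CPM in the fasted and 0 to 12.8 CPM in the refed group. Ifitm3, an interferon-induced membrane protein, stood at 79.3 to 456.2 CPM in fasted and 62.7 to 207.5 CPM in refed libraries. Slc26a2, a sulfate transporter, stood at 24.1 to 86.1 CPM (median 67.9) and 5.96 to 53.3 CPM (median 30.9). Both overlapped between the groups and were lower in all 4 cohorts. Exons of Rnpep, Exoc5, Oplah, Zfp36l1 and Camk1, all among the 24, overlap genes on the opposite strand, so their counts could hold reads of both.

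**Figure D4:**
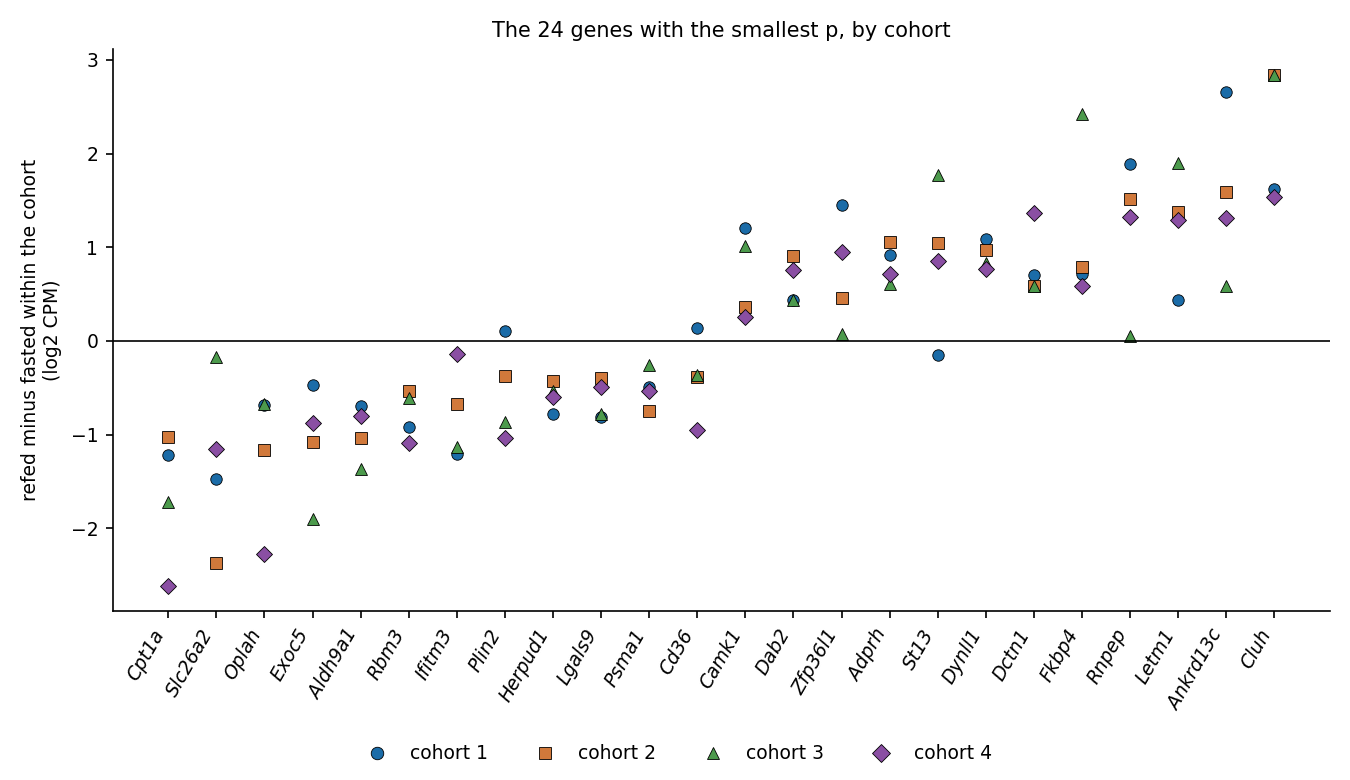
Refed minus fasted difference in mean log2 CPM within each of the 4 cohorts for the 24 genes with the smallest p, ordered by fold change, with symbols by cohort. Most genes hold 1 direction in all cohorts, while Plin2 and Cd36 lie just above 0 in cohort 1, at 0.10 and 0.14. The genes were picked by p in a fit of these same cohorts, so this agreement is not independent support.

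Whether refeeding acted differently in islet macrophages was tested in a joint edgeR fit of all 110 refeeding libraries, as the islet effect minus the mean effect in adipose tissue macrophages, Kupffer cells, peritoneal and colonic macrophages, microglia and monocytes. Of 18640 genes tested, 1 had a higher (0.00536%) and 4 a lower effect (0.0215%) in islets at an adjusted p of 0.05, and 1038 (5.57%) had an unadjusted p below 0.05. None of the 5 belonged to the fatty acid lists. DESeq2, without its filter on outlying counts, called 985 higher (5.28%) and 748 lower (4.01%), of which 74 in all had counts in every islet library and 674 had an unadjusted edgeR p below 0.05. For the 5 genes, levels of single libraries are CPM of the library total.

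Slc31a1, the copper importer CTR1, had the most evenly counted difference of the 5. In islets it stood at 17.4 to 107.3 CPM in the fasted and 5.12 to 36.9 CPM in the refed group, and it was lower in all 4 cohorts. The islet effect was -1.42 ± 0.35 and that in the other populations ran from -0.09 (Kupffer cells) to 0.72 (peritoneal macrophages), a difference of -1.78 ± 0.37 (SE, edgeR adjusted p = 0.0309). D6Wsu163e differed by -4.66 ± 0.82 (edgeR adjusted p = 0.0032), with counts in all 6 fasted and 6 of 7 refed islet libraries.

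The other 3 genes were too sparsely counted to be tested in the islet fit alone. C1ra, a protease of the complement C1 complex, was at 11.1 to 21.3 CPM in 5 fasted islet libraries and at 0 in the sixth, and was counted in 2 of 7 refed libraries, at no more than 0.0896 CPM (difference -9.17 ± 1.68, edgeR adjusted p = 0.00414). Jaml, a junctional adhesion molecule of leukocytes, was counted in 2 fasted libraries at no more than 0.163 CPM and in 5 refed libraries at up to 23.6 CPM (difference 7.60 ± 1.62, edgeR adjusted p = 0.0413). Rasgrp2, an activator of the small GTPase RAP1, was highest in a refed library, replicate 1_2 at 16.7 CPM, while the other 6 refed libraries held at most 0.13 CPM. Its difference of -5.26 ± 0.98 (edgeR adjusted p = 0.00428) had an adjusted p of 0.688 when the cohort terms were shared by all populations.

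For the fatty acid genes the difference from the other populations did not pass the test. The effect on Cpt1a was -1.68 ± 0.54 in islet, -0.75 ± 0.50 in peritoneal, -0.65 ± 0.47 in adipose and -0.54 ± 0.55 in Kupffer macrophages, -0.17 ± 0.49 in colonic macrophages, -0.20 ± 0.46 in monocytes and 0.00 ± 0.49 in microglia. Islets had the most negative estimate of the 7, and the difference from the mean of the others was -1.30 ± 0.57 (SE, edgeR adjusted p = 0.76). DESeq2 gave an adjusted p of 0.117. For Aldh9a1 the difference was -0.77 ± 0.26, with an adjusted p of 0.509 in edgeR and 0.033 in DESeq2, for Plin2 -0.31 ± 0.31 and for Cd36 -0.52 ± 0.64. Plin2 had negative estimates in adipose, Kupffer and peritoneal macrophages and monocytes as well, from -0.50 to -0.70. Dynll1 had positive estimates in all 7 populations, from 0.29 in colonic macrophages to 1.18 in microglia, and a difference of 0.17 ± 0.25. A p that misses the threshold does not show that the populations responded alike.

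**Figure D5:**
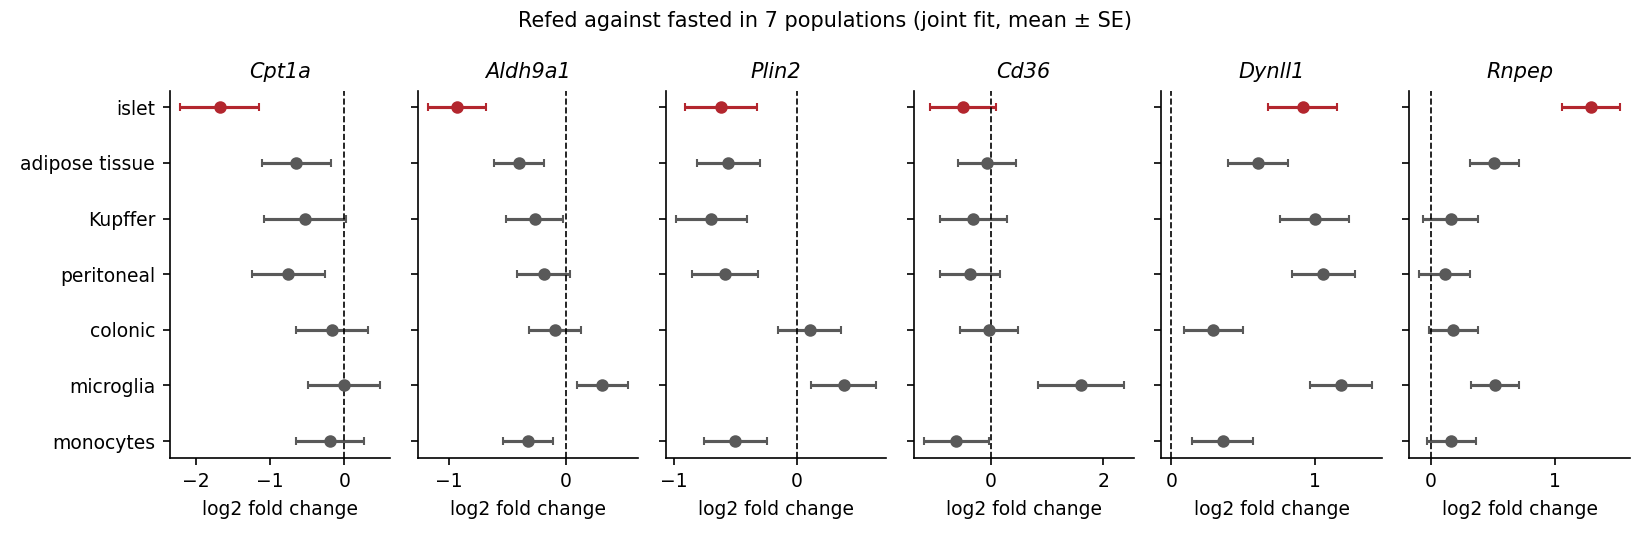
Log2 fold change of refed over fasted, with its standard error, for 6 genes in each of the 7 populations of the joint edgeR fit, islets in red. Cpt1a in islets lies at -1.68, left of the other populations, and Dynll1 lies right of 0 in all 7.

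Normal-diet islet macrophages of the separate diet experiment came from 4 libraries counted in another table with their own cohorts. Their labels give no fasting time, so whether these mice had been fasted is not known. Their TMM scaling was made jointly with the fasted and refed libraries, apart from the scaling of the fasted and refed levels. The values stand side by side with no test. Cpt1a stood there at 43.9 to 138 CPM, where fasted libraries held 149.5 to 254 CPM and refed libraries 17.5 to 91.6 CPM. Aldh9a1 stood at 56.3 to 182 CPM and Plin2 at 370.1 to 921 CPM. Rnpep stood at 14.3 to 47.7 CPM, nearer to the fasted median. Of the 12 genes with the smallest p on the lower side, 8 had a normal-diet mean nearer to the refed mean and 4 nearer to the fasted mean. Of the 12 on the higher side, 4 were nearer to the refed and 8 to the fasted mean. In both directions most genes thus lay nearer to the group of lower level. The same count was not made over all tested genes, so these counts have no background share.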

How the data were processed

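PolyA RNA of 400 sorted cells per library was extracted with a PicoPure kit and made into Smart-seq2 libraries, per the labels' protocols. The submitters' processing notes name Trimmomatic 0.36, STAR 2.5.1a, featureCounts and the mm10 build. For the strand setting, the handling of reads with several matches and the annotation release, a setting was not given in the sources used here. Values deposited by the authors are raw counts, whole reads assigned to genes, for 50686 Ensembl identifiers, of which 50376 matched a symbol in GENCODE M21. Identifiers without a symbol held 0.0187% of the islet counts.

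Refed and fasted islet libraries were compared in R 4.3.3 with edgeR 4.0.16 (filterByExpr, TMM, robust quasi-likelihood F test, cohort as a block, Benjamini-Hochberg adjustment, threshold 0.05). DESeq2 1.42.0 and limma 3.58.1 (voom with quality weights) were alternatives, with other normalizations, filters and libraries left out. The joint fit of 110 libraries used a term for each population and treatment and for each cohort within a population. Tables were handled in Python 3.11.15 with pandas 2.3.3. The fit was also run on simulated counts, at the fitted spread between libraries and at a far smaller one. A pass was required only at the smaller spread, so that check cannot show what was detectable in these data. The outcome at the fitted spread is not reported here. None of 36 pairs of libraries within a group held identical counts. Gene lists are described by counts and medians, without a set test. Named genes were the 12 with the smallest p in each direction at a mean of at least 10 CPM, the tested members of the 3 fatty acid lists, the 4 members of other lists with the smallest p, and, in 6 lists, the 6 of highest level. Not all of them are reported here. The members and lists were chosen with earlier results of these data known, so a pattern seen before in these data is not independent support.

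The labels repeat replicate numbers in both groups. Deviations from the group means of libraries with the same number correlated at 0.024 to 0.107. Libraries with different numbers were not correlated in this way, so these values cannot decide whether the numbers pair libraries. The main fit did not pair them. Total counts of 12263364 to 22334425 from 400 cells left 38.6% of tested genes without a count in at least 1 library.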

Additional observations from a re-analysis of the deposited data

Results flagged for a closer look

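Among 66 groups of library measures looked at for a value far from the rest, 2 held one, where chance gives about 1 in 20. The summed level of the dendritic cell markers in refed replicate 9 was 800.6 CPM, with the next library of its group at 457 CPM. In refed replicate 1_2, one of the libraries described as fasted, 0.547% of counts fell in mitochondrial protein genes, with the next refed library at 0.75%.

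In 5 genes the refeeding effect in islet macrophages differed from the mean effect of the other 6 populations by edgeR's test of the difference, on the log2 scale. The difference was 7.60 for Jaml (adjusted p = 0.0413), -4.66 for D6Wsu163e (adjusted p = 0.0032), -9.17 for C1ra (adjusted p = 0.00414), -5.26 for Rasgrp2 (adjusted p = 0.00428) and -1.78 for Slc31a1 (adjusted p = 0.0309). Under 9 other settings, C1ra passed in 7, D6Wsu163e in 6, Rasgrp2 in 5, Jaml in 4 and Slc31a1 in 3.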

How the results depend on the processing

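The count of 0 genes called in islets held for edgeR with no cohort term, with upper quartile or DESeq2 size factors, with at least 5 CPM in 6 libraries, without robust estimation, without each of the 13 libraries in turn (0 to 0 in each direction), without the 2 libraries described as fasted and in cohorts 2 and 4 alone, and for limma voom. In cohorts 1 and 3, leaving out either library took the whole cohort out of the comparison where cohort was a block. DESeq2 called 27 higher and 17 lower. With no filter on low counts edgeR called 1 higher (Jun) and 7 lower of 21268 genes: Cxcl13 (adjusted p 1.62e-22), Marco (1.27e-07, not tested under the main filter), Cpt1a and CT010467.1 (0.00256 each), and Herpud1, Hspa5 and Rel (0.0387 each). Settings chosen after seeing the data were a mean of at least 20 CPM, which gave 0, also without refed replicate 9, the same filter with DESeq2, which called 3 higher and 6 lower, and DESeq2 without its filter on outlying counts, which called 29 higher and 23 lower. The cause of these differences was not tested.

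With the replicate number as a block in place of the cohort, 0 genes were called and 268 had an unadjusted p below 0.05.

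Genes whose groups did not overlap were 8 higher and 4 lower, and 22 and 13 without the 2 libraries described as fasted. Leaving out 1 library gave 12 to 23 higher and 6 to 18 lower, since fewer libraries had to be separated. For the 24 genes with the smallest p, all 672 values under the alternatives kept their direction, and 26 values in 9 genes passed the threshold. These genes were picked by p in the same libraries, so a kept direction was nearly fixed by the choice and is not independent support. The medians of 6 lists (the 3 fatty acid lists, heat shock chaperones, mitochondrially encoded and immediate early genes) kept their sign under every alternative run on them. That of carnitine entry ran from -1.21 to -0.71, that of heat shock chaperones from 0.15 to 0.31 and that of immediate early genes from 0.08 to 0.37. Other lists did change sign: the median of FOXO targets was 0.13 over all libraries and -0.11 without the 2 libraries described as fasted.

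Against the other populations, cohort terms shared by all populations gave 8 higher and 21 lower effects in islets. Against single populations the counts were 0 and 1 (adipose), 0 and 2 (colonic), 2 and 2 (Kupffer), 0 and 6 (microglia), 0 and 1 (monocytes) and 1 and 3 (peritoneal). DESeq2 gave 985 and 748, with a median size of 13.2 on the log2 scale. With 400 cells a library, 38.6% of tested genes had no count in at least 1 library; the size of difference that could be detected in such genes was not tested.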

Other observations

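Cell cycle genes were sparse in these libraries. Of 36 listed, 19 were tested, 14 lower and 5 higher in refed libraries, with a median log2 fold change of -0.51 that was -0.26 without refed replicate 9. Top2a, a DNA topoisomerase of dividing cells, had no count in 6 of 13 libraries, a median of 1.99 CPM in fasted libraries and 0 in refed ones, and reached 24.2 CPM in a refed library. Mcm3, of the replicative helicase, was counted in every library, at 33.4 to 84.7 CPM in fasted and 20.2 to 80.6 CPM in refed libraries (log2 fold change -0.77 ± 0.36).

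In 3 lists of other cells 1 gene each had an unadjusted p below 0.05, each higher in refed libraries, Csf3r and Mbp among them. Csf3r, the receptor of the growth factor G-CSF, stood at 62.1 to 153 CPM (median 110.7) in fasted and 117.4 to 313 CPM (median 177) in refed libraries, while S100a8, a defining neutrophil gene, did not exceed 0.245 CPM in any library. The other tested gene of the neutrophil list, Mmp9, had a log2 fold change of -0.73 ± 1.01. Mbp, a myelin gene and the only tested one of its list, stood at 4.27 to 77.5 CPM (median 42.3) in fasted and 50.05 to 110.1 CPM (median 56.8) in refed libraries. Adgre1, which encodes the macrophage marker F4/80, stood at 541 to 914 CPM in fasted and 862 to 1298 CPM in refed libraries, higher in all 4 cohorts (log2 fold change 0.33 ± 0.14).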
